A study of Saccharomyces cerevisiae with 176 samples.

Results

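Strain A1 is an aneuploid strain of the budding yeast Saccharomyces cerevisiae, that is, a strain whose cells carry a chromosome number that is not a whole multiple of the basic set. Its libraries were chosen by their titles: 2 in the experiment exp2 and 2 in exp5, which makes 4 of the 176 libraries of the series. In exp2 they were set against the 2 libraries of the strain labelled 2N, taken as the euploid control. Exp5 holds no 2N, so there A1 was set against the mean of the 11 other strains of that experiment (A24, A26, A28, A29, A30, A32, A33, A34, A35, A36 and A38, 22 libraries), all of them among the aneuploid strains of the study. Another 5 aneuploid strains of exp2 (A19, A20, A21, A22 and A23, 10 libraries) share the estimate of spread and serve as a second set of strains beside A1. All groups are in the S288C background and were grown in YEPD, a rich medium, with 2% glucose at 25 °C. Overnight cultures were diluted to an optical density of about 0.1 and harvested 4 h later, while growing exponentially. The labels give total RNA and Truseq libraries for exp2, and poly(A) RNA and KAPA libraries for exp5. A1 is a single strain, its karyotype and ploidy are not in the labels, and nothing says that the 2 libraries of a strain came from separate cultures, so the p-values measure only the spread between libraries, which may be technical.

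A gained chromosome usually raises the RNA of most genes on it in step with their extra copy, and genes that stay near their usual level are called dosage compensated. Aneuploid yeast strains are known for slow growth and for the environmental stress response, a programme in which genes for stress protection, trehalose and glycogen metabolism rise while genes for ribosomes and ribosome assembly fall. The promoters of many of the induced genes hold the stress response element, a short motif bound by the factors Msn2 and Msn4. The study asked how expression differs between euploid and aneuploid strains under different growth conditions.

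Expression is given on the authors' scale of log2(TPM + 1), where TPM is a gene's share of all quantified transcripts scaled to a fixed total, and all changes below are differences on that log2 scale. Summed TPM over the genes of the table reached 5.03% to 6.74% of that fixed total in the 14 exp2 libraries and 96.7% to 99.6% in the 24 exp5 libraries. An exp2 value is therefore a share of a total made up mostly of other transcripts, and many genes lay near 0 there. The read depth of the libraries is unknown. The 2 A1 libraries had a median SD per gene of 0.34 in exp2 and of 0.05 in exp5. Differences between A1 and its comparison strains were fitted across all genes with limma, in each experiment apart, for genes with a mean of at least 2, and a gene is called at a Benjamini-Hochberg adjusted p under 0.05.

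Chromosome XIII was the shifted chromosome of A1. For each library the median of its genes was taken on each of the 16 nuclear chromosomes, as the difference from the reference strains and relative to all nuclear genes. In exp2 this relative median was 0.48 and 0.49 in the A1 libraries, against -0.01 and 0.01 in the 2N libraries. None of the other 15 chromosomes of A1 passed a size of 0.12 in exp2, the largest being chromosome V at -0.12 in replicate 2. In exp5 chromosome XIII stood at 0.45 and 0.44 in A1, and the library values of the other strains ran from -0.32 in A38 to 0.31 in A26.

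RNA came from whole cultures, so fewer cells with a shifted chromosome and less RNA per cell cannot be told apart. The chromosome was picked in exp2 and tested in the libraries of exp5. There the median of XIII was 0.43 higher in the A1 libraries than in the other 22, by an exact two-sided permutation test over libraries (p = 0.00362, the smallest that 276 splits can give). Both A1 libraries lay above all 22 others. Libraries of 1 strain are not independent strains, however. With strains as the unit, A1 was first of 12, and the smallest p such a design allows is 0.083. The nearest strains in exp5 were A26 at 0.30 and A29 at 0.26 on average. The strains fell on both sides of 0, with A24, A32, A34, A35 and A38 between -0.32 and -0.19. The size of the exp5 shift therefore depends on which strains it is set against: with the median in place of the mean of the other strains it was 0.38. In exp2 too, other strains were above 2N on XIII, with A20 next to A1 at 0.41 and 0.33, and A22 below 2N at -0.28 and -0.32.

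**Figure D1:**
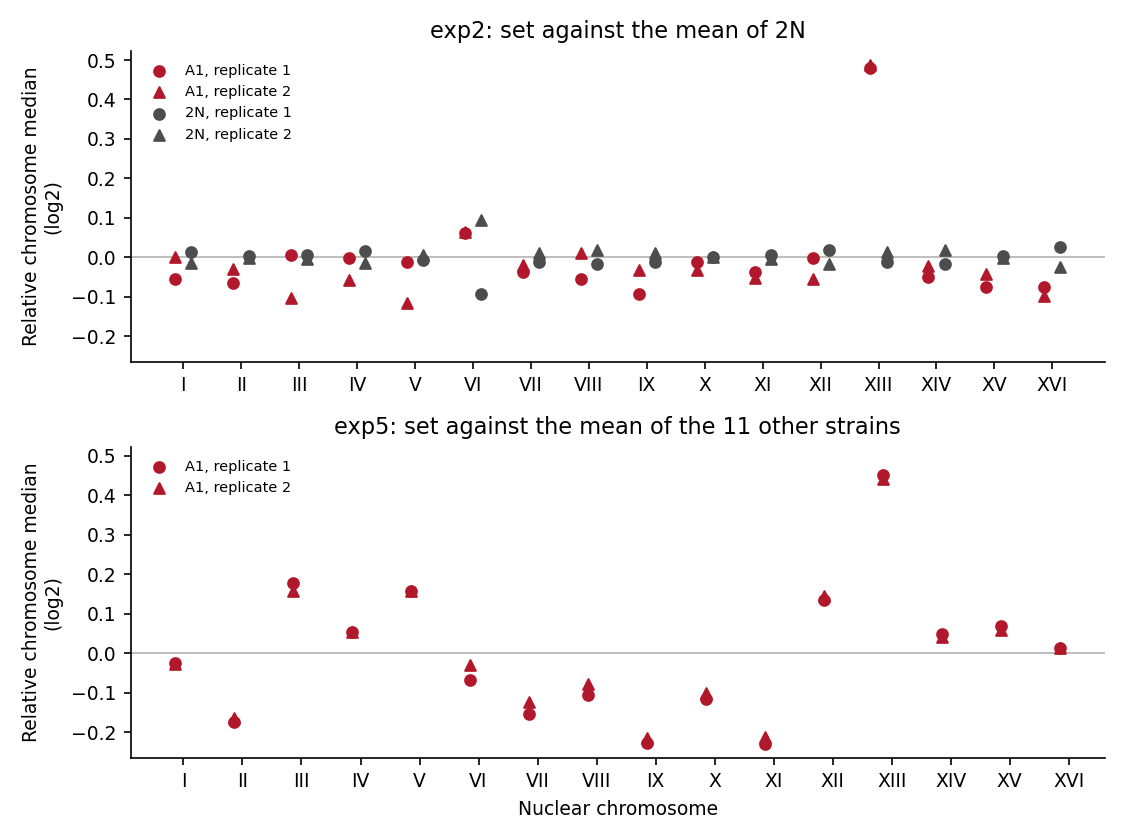
Relative median of each nuclear chromosome in A1 (red) and 2N (grey) libraries, on the log2 scale, with 1 symbol per library. Chromosome XIII stands at 0.48 and 0.49 in A1 in exp2 and at 0.45 and 0.44 in exp5, while the other chromosomes of A1 stay between -0.12 and 0.06 in exp2 and between -0.23 and 0.18 in exp5, where the other strains are aneuploid too.

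**Figure D2:**
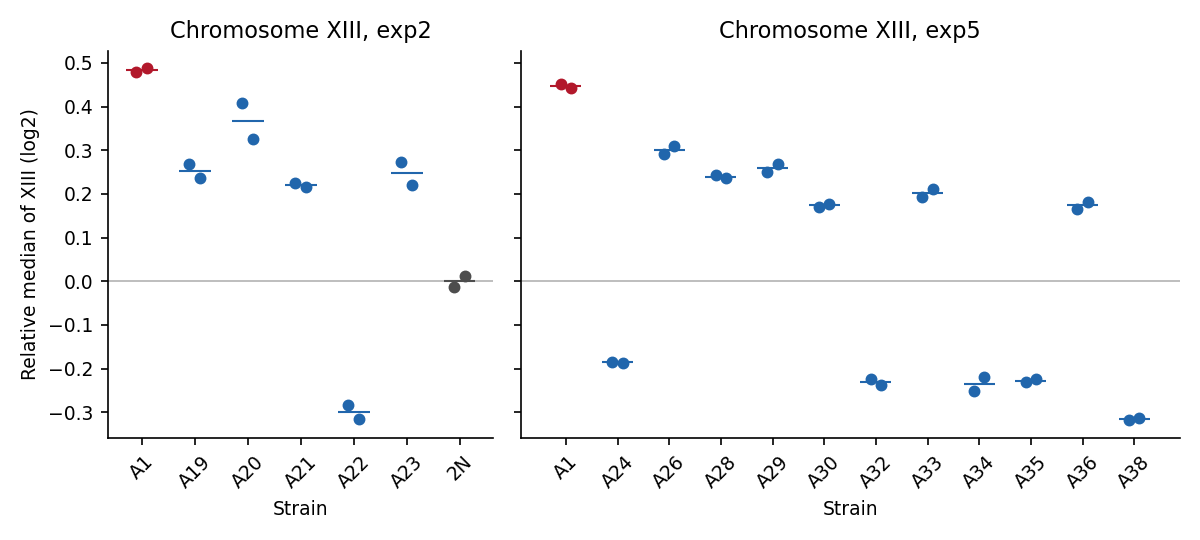
Relative median of chromosome XIII by strain in exp2 (left) and exp5 (right), on the log2 scale, with a point per library and a bar at the strain mean. A1 is first of 7 strains in exp2 and first of 12 in exp5, and its nearest neighbours are A20 in exp2 and A26 in exp5.

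Of 513 genes of chromosome XIII in the table, 257 passed the filter on low values in exp2 and 428 in exp5, and 252 passed in both. Relative to the median of the other chromosomes, the median change of the tested XIII genes was 0.55 in exp2, which is a ratio of 1.46, with an interquartile range of 0.30 to 0.82. In exp5 it was 0.47, a ratio of 1.39, with an interquartile range of 0.31 to 0.61. For scale, 3 copies against 2 would be 0.58 on the log2 scale. The ratios above are of TPM + 1, which understates changes of low values, and the exp5 strains compared with differ on XIII themselves. They are thus not a measure of copy number. Above the median of the other chromosomes lay 237 of 257 XIII genes in exp2 (92.2%) and 399 of 428 in exp5 (93.2%). In exp2 the median change of all genes tested was itself 0.12 and in exp5 0.006, so changes of groups are given relative to these.

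The shift ran along the whole chromosome. On the left arm the relative median was 0.51 in exp2 and 0.49 in exp5, and on the right arm it was 0.57 and 0.47. When the tested genes were cut into 10 blocks by position, the block medians ran from 0.41 to 0.69 in exp2 and from 0.42 to 0.51 in exp5. The 20 tested genes nearest the left end had a median of 0.42 in exp2 and 0.46 in exp5, and the 20 nearest the right end had 0.68 and 0.40. Split into 3 classes by mean level, from low to high, XIII genes had medians of 0.61, 0.61 and 0.50 in exp2 and of 0.46, 0.47 and 0.49 in exp5. No block or level class fell near 0 in either experiment.

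**Figure D3:**
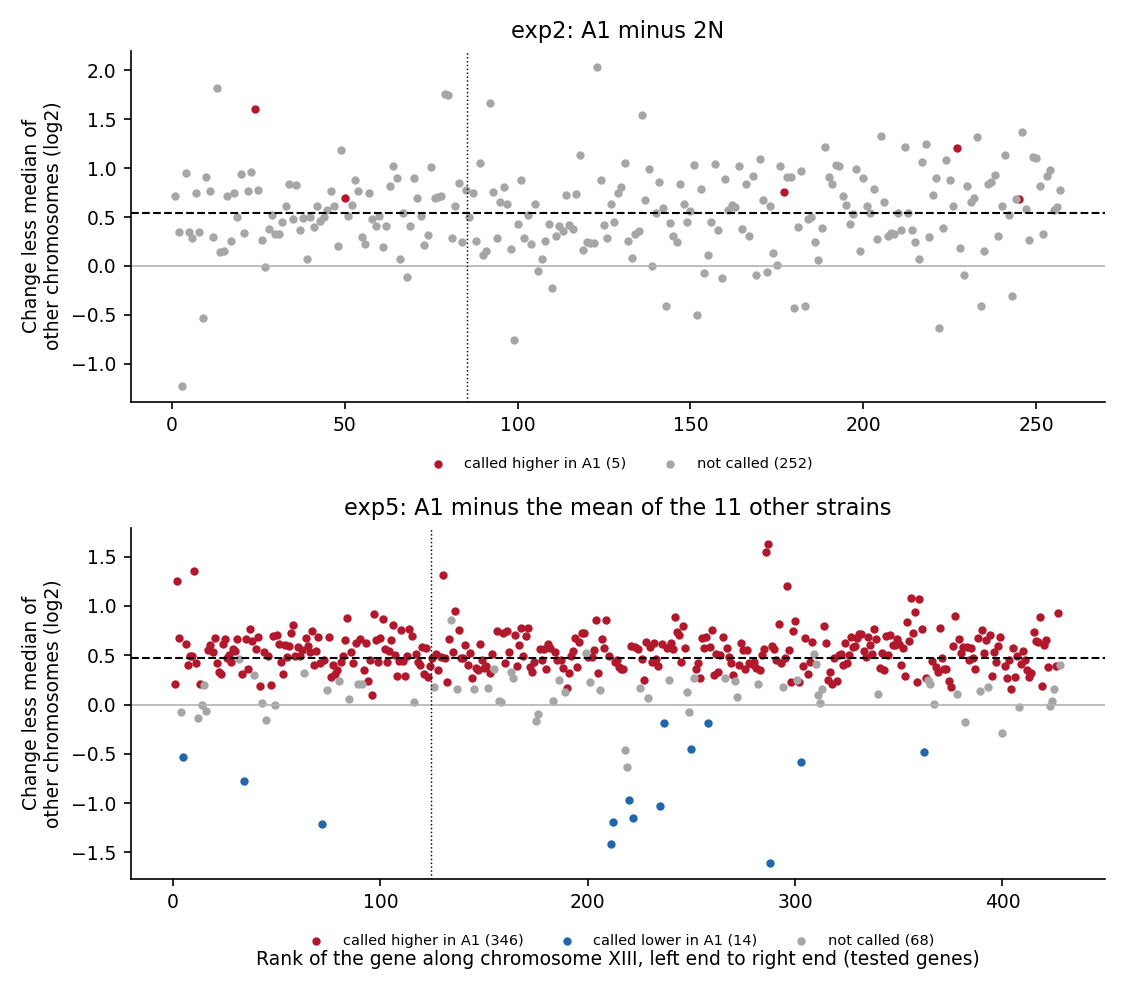
Change of each tested gene of chromosome XIII in A1, less the median of the other chromosomes, on the log2 scale, by the order of the genes along the chromosome. The dashed line is the median (0.55 in exp2, 0.47 in exp5) and the dotted line the centromere; 5 genes were called higher in exp2, and 346 were called higher and 14 lower in exp5.

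Single genes were rarely resolved in exp2 and mostly resolved in exp5. Against 2N, 15 of 3042 genes were called in exp2 (0.493%), 13 higher (0.427%) and 2 lower (0.0657%). Of the 257 XIII genes, 5 were called higher and 0 lower by limma. Both A1 libraries lay above both 2N libraries for 162 of them (63%), against 22.7% of all genes tested, and below both for 3, against 9.76%. At an unadjusted p under 0.05 the counts were 78 higher and 0 lower. Leaving out either library of A1 or of 2N left 1 to 6 calls in exp2, 0 of them on XIII, and the fit of the 4 libraries of A1 and 2N alone gave 0 (146 higher and 58 lower at an unadjusted p under 0.05). The median standard error of an XIII gene was 0.40 in exp2 and 0.08 in exp5. On simulated data built on these libraries, a change of 0.5 was recovered for 0% of 100 genes in exp2 and for 84% of 100 in exp5. For a change of 1.0 the shares were 11% and 98%. The simulation gave 0 false calls in exp2 and 10 in exp5. It gave every library the mean of 1 strain, 2N in exp2 and A24 in exp5, with the spread seen within strains. Differences between strains were left out, so these shares cover only the spread between libraries of a strain. A further fit took the 44 libraries of exp1 to exp3 together, with a term for each experiment. It added the 2N libraries of exp1 and exp3, more libraries of the other exp2 strains and the strains A18, A25, A27 and A35. Neither added experiment holds an A1 library. In this fit 63 of 3152 genes were called (2%), 51 of them higher (1.62%). Of these 51 genes, 41 lay on XIII, which is 15.8% of its 259 tested genes, and 0 XIII genes were called lower (0 also in the fit of exp2 alone). Of the 15 genes called in exp2 alone, HSC82, RPS1B, GAS1, PRM5, SSA1, SED1 and YBR089W were also called in this larger fit. Its A1 libraries are the same, so it is not a repeat of the exp2 result. DSK2, TSL1, YGP1, HXK1, YDL124W, TMA10 and YFR052C-A were not (limma adjusted p from 0.0506 to 0.372), and HSP12 was not tested.

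Against the other strains of exp5, 2457 of 5375 genes were called (45.7%), 1238 higher (23%) and 1219 lower (22.7%). On XIII 346 genes were called higher (80.8%) and 14 lower (3.27%), whereas on the other chromosomes 18% were called higher and 24.4% lower. Without A1 replicate 1 the calls over all genes were 1562 and without A1 replicate 2 they were 1546. The values of A1 lay above all 22 other libraries for 162 of the 428 XIII genes, or 37.9%, against 4.06% of all genes tested, and below all of them for 1 gene, against 1.04%. With strain means as the unit, limma called 0 genes in exp5, a fit in which A1 has a single value, and 0 with the chromosome medians removed. At an unadjusted p under 0.05 the first of these fits had 72 genes higher and 21 lower, and the other had 37 and 74. Of the 252 XIII genes tested in both experiments, 219 (86.9%) had the same sign in both, against 1310 of 2702 (48.5%) on the other chromosomes and the mitochondrial genome.

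The XIII genes called higher in both comparisons were HSC82, RPS1B, GAS1 and DSK2. HSC82 encodes the constitutive Hsp90 chaperone (chromosome XIII, bases 632355 to 634472, plus strand, in sacCer3). It had 7.05 and 7.25 in the A1 libraries of exp2, against 6.30 and 6.33 in 2N. In exp5 it had 10.53 and 10.60 in A1, against a lowest of 9.01, a median of 9.79 and a highest of 10.28 in the other 22 libraries. Both A1 libraries were thus above all libraries they were set against in each experiment. The changes were 0.83 ± 0.14 in exp2 (SE, limma adjusted p = 0.0319) and 0.83 ± 0.05 in exp5 (SE, limma adjusted p = 1.94e-09). HSC82 has a near-identical copy, HSP82, so its reads may be shared between them.

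RPS1B encodes a protein of the small ribosomal subunit and also has a paralog, RPS1A. It had 7.24 and 7.32 in A1, against 6.53 and 6.49 in 2N, a change of 0.77 ± 0.14 (limma adjusted p = 0.0376). The exp5 level was 12.4 in both A1 libraries, against 11.4 to 12.0 in the others, a change of 0.73 ± 0.02 (limma adjusted p = 6.96e-13). GAS1, a cell wall glucan-remodelling enzyme, had 7.14 and 7.33 in A1, against 6.50 and 6.46 in 2N, a change of 0.76 ± 0.13 (limma adjusted p = 0.0319). In exp5 it had 9.47 and 9.59 in A1, against a lowest of 8.03, a median of 8.88 and a highest of 9.52 in the others, so that A1 and A26 overlapped. DSK2, a ubiquitin-binding protein that takes part in protein degradation, showed the larger difference from 2N, with 4.90 and 4.76 in A1 and 3.46 and 3.62 in 2N. In exp5 its A1 values of 7.88 and 7.84 lay inside the range of the others, which ended at 7.91, and the change was 0.34 ± 0.04 (limma adjusted p = 8.45e-06).

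The XIII members of pathways that are spread over several chromosomes were set beside the other members. Of all gene lists examined, 13 had at least 2 tested members on XIII, among them amino acid synthesis, oxidative stress and DNA damage genes, which are not described further. In exp2 the XIII members had the higher relative median in 13 of 13 lists and in exp5 in 12 of 13, the exception in exp5 being trehalose and glycogen metabolism. XIII was picked in exp2 for its high median, so the exp2 count largely follows from that choice. Most XIII genes were above the other chromosomes in exp5 too (93.2%), so these counts describe the chromosome and not the pathways. Ergosterol synthesis, the sterol pathway of the yeast membrane, gives an example, with 7 tested members on XIII. Those had a relative median of 0.54 in exp2 and 0.47 in exp5, while its other tested members had -0.26 and -0.10. Over the whole list of 26 tested genes in exp5, 7 were called higher and 8 lower, shares near those of all genes (23% and 22.7%), with a relative median of -0.04. In exp2 0 of 23 were called by limma (2 higher and 1 lower at an unadjusted p under 0.05). The 7 called higher in exp5 are the XIII members. HMG1, the HMG-CoA reductase that sets the pace of the pathway, had 5.36 and 5.42 in A1 in exp5, against 4.14 to 5.50 in the others, with A1 second of 12. ERG8, the phosphomevalonate kinase, had 6.63 and 6.51 in A1, against 5.49 to 6.33, above all other libraries. ERG3, a sterol desaturase gene on chromosome XII, had 7.52 and 7.59 in A1, against 7.57 to 9.28 in the others, and A1 was last of 12 (change -0.62 ± 0.06, limma adjusted p = 1.32e-07).

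Of ribosomal protein genes, 10 were tested on XIII in exp5, with a relative median of 0.66, against 0.13 for the list's other members. RPL6A, a large subunit gene on XIII, had 12.2 and 12.0 in A1, against 10.6 to 11.8 in the others, and in exp2 6.52 and 6.71 in A1, against 6.08 and 6.00 in 2N, where it was not called.

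Genes of XIII that did not follow the chromosome were looked for in both experiments at once. A gene was said to follow where its relative change was at least 0.5 times the chromosome's relative median over these genes in both experiments (limits of 0.27 in exp2 and 0.23 in exp5), and not to follow where it was under the limit in both. Of the 252 genes, 164 followed (65.1%), 11 did not (4.37%) and 77 were mixed (30.6%). Just inside the limit were RNA1 at 0.28 in exp2 and EPO1 at 0.23 in exp5, and just outside were TAF13 at 0.27 in exp2 and ROT1 at 0.23 in exp5. The limits define these classes, so the values of the 11 genes are a description.

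Of the 54 genes under the limit in exp2, 11 were under it in exp5 (20.4%), and of the 198 genes at or over it in exp2, 34 were under it in exp5 (17.2%). With exp1 to exp3 in 1 fit, which holds the same A1 libraries, the shares were 19.6% of 46 and 17.1% of 210. Removing the chromosome median from every library gave 0 XIII genes called below or above their chromosome in exp2 by limma, with 6 below and 3 above at an unadjusted p under 0.05. In exp5 the same step called 89 of 428 XIII genes below their chromosome and 74 above it, and 265 were not called. Of all genes tested, 16.5% were called below and 17.7% above (34.2% in either direction). No XIII gene was called away from its chromosome in both experiments.

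The 11 genes were TSA1, NCW1, ERG2, ABF2, GSR1, TVP18, COX14, VTI1, GID8, GAT2 and YMR181C. TSA1 encodes the main cytosolic thioredoxin peroxidase and was the most abundant of them (chromosome XIII, bases 220138 to 220728, plus strand). It had 6.81 and 6.96 in A1 in exp2, against 6.63 and 6.85 in 2N. The exp5 level was 11.4 in both A1 libraries, against a lowest of 10.9, a median of 11.3 and a highest of 11.9 in the others. Its A1 values overlapped the range of the other libraries in both experiments. The changes were 0.15 ± 0.13 in exp2 and 0.08 ± 0.03 in exp5, which is 0.37 below the change of its chromosome in exp5. The 10 libraries of the other exp2 strains ran from 6.81 to 7.61.

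NCW1, a small cell wall protein, had 10.2 in both A1 libraries of exp5, against 9.26 to 11.4 in the others, and 5.11 and 4.99 in A1 against 4.68 and 4.78 in 2N. ERG2, the sterol isomerase, had 4.65 and 5.06 in A1 in exp2, against 4.33 and 4.72 in 2N, and in exp5 8.98 and 9.02 in A1, against 8.32 to 9.36. It lay close to the limit in both. ABF2, which packages mitochondrial DNA, had 8.32 and 8.21 in A1 in exp5, against 7.54 to 8.64 in the others. COX14, an assembly factor of cytochrome oxidase, was the lowest of the 11 in exp2, but its A1 libraries there were far apart, at 2.09 and 3.79, against 3.88 and 4.29 in 2N. GAT2, a GATA-type transcription factor gene, was the lowest of the 11 in exp5, with 4.62 and 4.56 in A1 against 3.01 to 6.12 in the others. GSR1 overlaps an antisense gene annotation, as does GID8, a subunit of the ligase that degrades gluconeogenic enzymes, and whether the counting used strand is not stated.

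Across the other 11 strains of exp5 the genes were also set against their chromosome. The slope of a gene's strain mean on the strain's XIII median was 1.19 in the median over the 11 genes (range 0.44 to 2.36), 1.15 over the 164 followers (range -1.26 to 3.24) and 1.04 over all XIII genes. For TSA1 the slope was 1.19, and GAT2 had the lowest of the 11. These slopes are a description over 11 strains that differ in other chromosomes too.

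**Figure D4:**
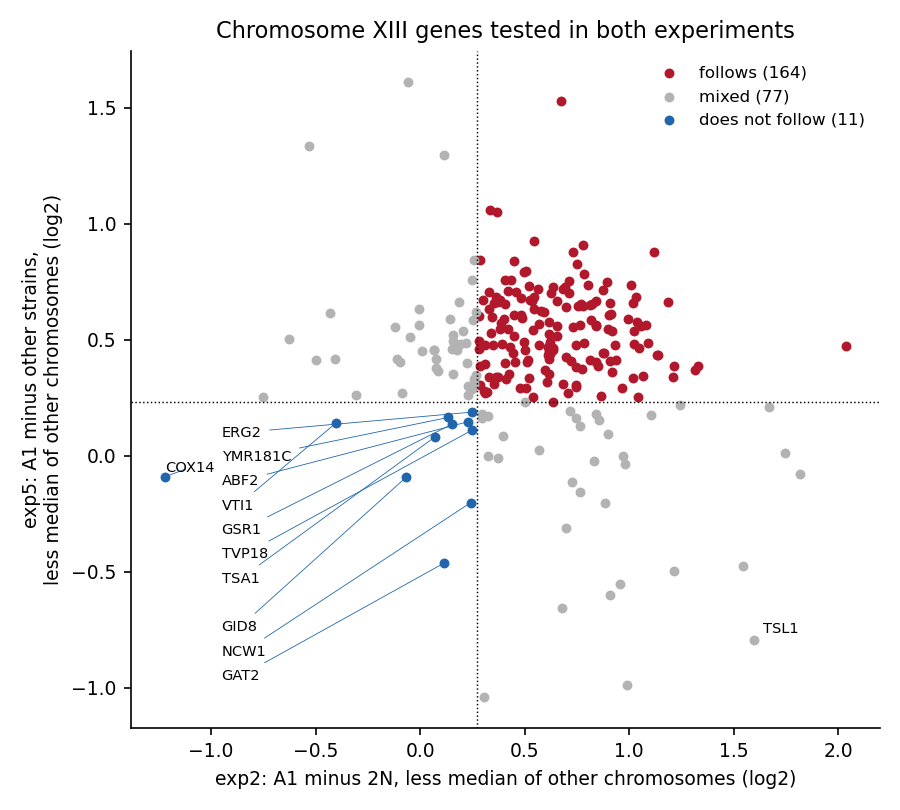
Relative change of the 252 genes of chromosome XIII tested in both experiments, in exp2 (A1 minus 2N) and exp5 (A1 minus the mean of the other strains), on the log2 scale. Dotted lines are the limits of 0.27 and 0.23; 164 genes follow in both, 11 in neither (named), and the stress gene TSL1 is far above in exp2 and far below in exp5.

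A further group of XIII genes was called lower than the other strains in exp5. These 14, named after their values were seen, were PAI3, SNO1, HUG1, SNZ1, SPG4, ADE17, PGM2, TSL1, GCV2, MSC1, GAD1, GAT2, NDE1 and NCW1. PAI3, an inhibitor of a vacuolar protease, had 1.54 and 2.77 in A1, against 2.46 to 5.07 in the others. ADE17, an enzyme of purine synthesis, had 2.84 and 3.00 in A1 and 2.87 to 4.85 in the others, and GCV2, a subunit of the glycine decarboxylase, had 4.05 and 4.34 and 4.13 to 5.38. SNO1 and SNZ1, a divergent pair of vitamin B6 synthesis genes, had changes of -1.44 and -1.21. Of these 14 genes, 9 were tested in exp2, and 1 was called there, TSL1, which was higher than 2N. PGM2, a phosphoglucomutase, was at 1.07 above 2N without being called (limma adjusted p = 0.346). The stress list below holds 5 of the 14 (TSL1, MSC1, PGM2, PAI3 and GAD1).

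At the other end, and also named after their values were seen, DDR48, a DNA damage and stress gene, was 1.53 above the other strains, with 7.40 and 7.32 in A1 against 4.06 to 7.53. It overlaps YMR173W-A, whose change was 1.61, and their reads cannot be told apart. PHO84, the high-affinity phosphate transporter, had 5.76 and 5.70 in A1, against a lowest of 1.299, a median of 4.59 and a highest of 6.63 in the others. Against 2N it was not called, with 4.90 and 4.68 in A1 and 5.14 and 5.36 in 2N. The citrate carrier gene YHM2 was above all others, with 8.09 and 8.08 in A1 and at most 7.42 elsewhere. FAA4, a fatty acyl-CoA synthetase, had 8.28 and 8.24 in A1 and at most 7.67 in the other strains.

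The genes called in both experiments in opposite directions were 4, TSL1 on XIII and HSP12, HXK1 and YFR052C-A on chromosome VI. Each was higher than 2N in exp2 and lower than the other strains in exp5. In the shared fit of exp1 to exp3 none of them was called against 2N. There TSL1 was at 1.34 (limma adjusted p = 0.0796), HXK1 at 1.11 (0.187) and YFR052C-A at 1.73 (0.26), and HSP12 was not tested. TSL1 encodes a regulatory subunit of the trehalose synthase, HSP12 a small membrane heat shock protein and HXK1 the hexokinase used on poor carbon sources. YFR052C-A is annotated over HXK1 on the same strand, so these are 1 signal. The promoters of the 3 named genes are shown because each holds stress response elements. The windows run from 349 to 100 bases before the start codon, in the R64 assembly, with the coding strand 5′ to 3′, and matches of AGGGG or its reverse complement CCCCT are in capitals.
TSL1, chrXIII:70275-70524, plus strand: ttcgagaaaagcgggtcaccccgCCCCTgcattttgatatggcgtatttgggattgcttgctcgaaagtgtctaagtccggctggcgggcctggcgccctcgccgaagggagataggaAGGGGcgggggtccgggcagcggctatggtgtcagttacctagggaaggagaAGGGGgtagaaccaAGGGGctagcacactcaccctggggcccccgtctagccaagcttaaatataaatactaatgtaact
HSP12, chrVI:106907-107156, plus strand: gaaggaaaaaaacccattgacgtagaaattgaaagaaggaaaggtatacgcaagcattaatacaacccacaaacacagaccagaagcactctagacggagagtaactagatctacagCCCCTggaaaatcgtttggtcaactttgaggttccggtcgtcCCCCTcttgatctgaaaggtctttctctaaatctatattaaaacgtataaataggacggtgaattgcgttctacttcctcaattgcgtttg
HXK1, chrVI:255149-255398, minus strand: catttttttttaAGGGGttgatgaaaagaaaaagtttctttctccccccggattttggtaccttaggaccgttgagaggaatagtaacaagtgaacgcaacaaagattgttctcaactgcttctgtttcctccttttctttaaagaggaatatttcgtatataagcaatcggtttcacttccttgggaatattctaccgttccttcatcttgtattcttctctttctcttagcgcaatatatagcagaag

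TSL1 has 4 matches in its window, HSP12 has 2 and HXK1 has 1. Of 6662 nuclear gene windows of the same length, 19.6% hold at least 1 match, 2.93% at least 2 and 0.09% at least 4. A match is a description of the letters, not a bound site.

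TSL1 had 3.54 and 3.72 in A1 in exp2, against 1.85 and 2.06 in 2N, a change of 1.68 ± 0.25 (SE, limma adjusted p = 0.0176). In exp5 it had 3.70 and 3.55 in A1, against a lowest of 2.25, a median of 4.79 and a highest of 6.47 in the others, a change of -0.80 ± 0.31 (limma adjusted p = 0.0459). A1 was thus clear of 2N in exp2 but eighth of 12 strains in exp5. HSP12 had 2.74 and 2.25 in A1 in exp2, and was listed at 0 in both 2N libraries (limma adjusted p = 0.0319). The exp5 level was 4.18 and 3.72 in A1, against a lowest of 4.03, a median of 5.91 and a highest of 7.76 in the others, and A1 was last of 12 (change -1.91 ± 0.11, limma adjusted p = 4.33e-10). HXK1 had 4.39 and 4.65 in A1, against 2.72 and 3.198 in 2N (change 1.56 ± 0.21, limma adjusted p = 0.0091). In exp5 it had 4.40 and 4.39 in A1, against 2.17 to 8.20 in the others, with A32 and A34 below A1 and a change of -1.58 ± 0.33 (limma adjusted p = 0.00094).

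Exp2 itself holds both kinds of comparison, since 5 other aneuploid strains were sequenced beside A1 and 2N. Set against the mean of those 5, TSL1 differed by -0.54 (limma adjusted p = 0.181), HSP12 by -0.11 (0.906) and HXK1 by -0.74 (0.0298). Only HXK1 was called among the 3. For TSL1 the 10 libraries of those strains ran from 2.13 to 5.85 with a median of 4.26, so A1 lay above 2N and inside the range of the other aneuploid strains. The comparisons of exp2 share the A1 libraries. Exp2 and exp5 differ in the strains to compare with, in RNA selection and in library kit at once, so these cannot be told apart as sources of a difference between the experiments.

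**Figure D5:**
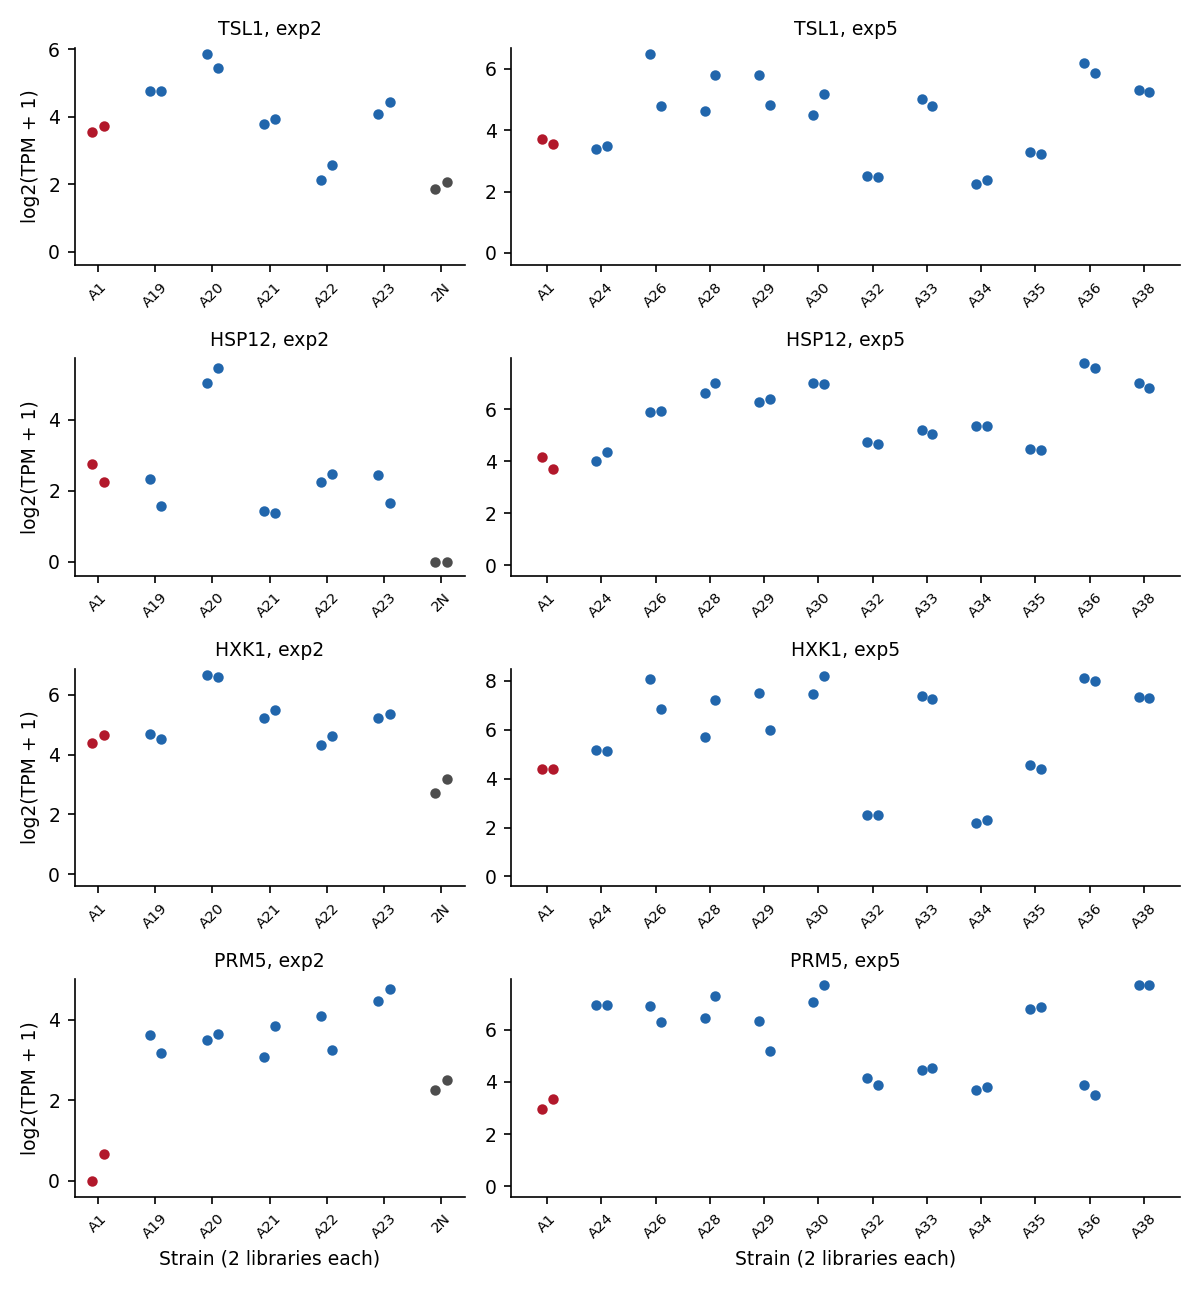
Level of TSL1, HSP12, HXK1 and PRM5 by strain in exp2 (left) and exp5 (right), in log2(TPM + 1), with 2 libraries per strain; A1 is red and 2N grey. TSL1, HSP12 and HXK1 are above 2N in A1 and in the lower part of the range in exp5, and PRM5 is below 2N and below every other strain in both.

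Other stress-induced genes were counted as a list. Against 2N, 5 of 53 tested genes were called higher and 0 lower, beside 0.427% and 0.0657% of all genes, with a median of 0.59 relative to all genes. The 5 were TSL1, HSP12, HXK1, TMA10 and YDL124W, an oxidoreductase gene. TMA10, a ribosome-associated stress protein, had 2.59 and 2.58 in A1 and was listed at 0 in both 2N libraries. Against the other strains of exp5, 57 of 77 were called lower and 6 higher, beside 22.7% and 23% of all genes, with a relative median of -0.58. Against the 5 aneuploid strains of exp2, 3 were called lower (HXK1, PNC1 and ALD4) and 0 higher, beside 2.01% and 1.08% of all genes (3.09% in either direction), with a relative median of -0.54. Its level by strain, centred on the strains of an experiment, was -0.28 in A1 and -0.93 in 2N in exp2, where A1 was sixth of 7. In exp5 it was -0.54 in A1, rank 10 of 12, above A32 at -0.64 and A34 at -0.80. A35 at -0.51 was next to A1.

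The XIII members of the list went both ways in exp5. The 11 on XIII had a relative median of 0.21, against -0.61 for the rest. Of these 11, 5 were called higher (RIM11, DDR48, HOR7, TPS3 and PRC1) and 5 lower (TSL1, MSC1, PGM2, PAI3 and GAD1). TPS3, like TSL1 a regulatory subunit of trehalose synthase, had changes of 1.14 in exp2 and 0.34 in exp5. The relative median of the list kept its direction under every setting tried that kept the same strains to compare with, from 0.46 to 0.87 against 2N and from -0.68 to -0.48 in exp5.

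Trehalose and glycogen genes, the storage carbohydrates of stressed cells, had 1 of 15 called higher against 2N (TSL1), beside 0.427% of all genes, and a relative median of 0.43. Against the other exp5 strains, 12 of 19 were called lower and 1 higher (all genes 22.7% and 23%), with a relative median of -0.48. GSY2, the main glycogen synthase, had 3.21 and 3.67 in A1, against 2.09 and 2.84 in 2N, without a call (limma adjusted p = 0.316). The exp5 level was 3.67 and 3.56 in A1, against 2.88 to 6.64 in the others, where A1 ranked 10 of 12.

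Genes of respiration and the TCA cycle had their lowest level of the 12 exp5 strains in A1. In exp5, 44 of 50 were called lower and 0 higher, against 22.7% and 23% of all genes, with a relative median of -0.41, and A1 had the lowest strain mean of the 12 for 15 of the 50, against 3.11% of all genes tested. Their level by strain was -0.38 in A1, the lowest of the 12, with A35 next at -0.31. MDH1, the mitochondrial malate dehydrogenase, had 6.80 and 6.79 in A1, against a lowest of 7.20, a median of 7.59 and a highest of 8.54 in the others. Both A1 libraries were below all 22 (change -0.99 ± 0.05, limma adjusted p = 1.91e-10). IDH2, a subunit of isocitrate dehydrogenase, had 7.97 and 7.94 in A1 against 8.01 to 9.52. ACO1, the aconitase, had 7.54 in both A1 libraries against 7.61 to 8.41.

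In exp2 the same list gave 0 of 50 called against 2N in either direction by limma, at a relative median of 0.34 (9 higher and 1 lower at an unadjusted p under 0.05), and 7 lower and 0 higher against the other 5 aneuploid strains, at -0.51, beside 2.01% and 1.08% of all genes. The 7 were PET9, ATP1, COX9, SDH2, ACO1, CIT1 and IDH2. CIT1, the mitochondrial citrate synthase, had 3.18 and 3.28 in A1, 4.06 to 5.52 in the other aneuploid strains and 3.19 and 3.22 in 2N. A1 was level with 2N and below each of the other libraries (change from those 5 strains -1.43 ± 0.17, limma adjusted p = 0.000816). IDH2 had 4.36 and 3.85 in A1, 4.46 to 5.36 in the other aneuploid strains and 3.06 in both 2N libraries, so A1 lay between. Mitochondrial ribosomal proteins were called lower for 38 of 74 and higher for 6 in exp5 (all genes 22.7% and 23%, relative median -0.18), with 0 of 44 called against 2N by limma (4 higher and 1 lower at an unadjusted p under 0.05).

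Ribosome assembly genes went the other way in exp5. Of 150 tested, 98 were called higher and 4 lower against the other strains, beside 23% and 22.7% of all genes, with a relative median of 0.24, and their level by strain was highest in A1, at 0.22, followed by A33 at 0.18. A1 had the highest strain mean for 12 of the 150, a share near the 6.4% of all genes tested. Of those 12 genes 7 lie on XIII, and 4 of them, UTP15, ERB1, BUD22 and ECM16, had changes of 0.72 to 0.84. These 7 are all tested members of the list on XIII. A1 was highest for 53% of all tested XIII genes and for 2.37% of genes on the other chromosomes. Against 2N 0 of 145 were called by limma (4 higher and 2 lower at an unadjusted p under 0.05), with a relative median of -0.15. Cytosolic ribosomal proteins had 77 of 138 called higher and 18 lower in exp5 (all genes 23% and 22.7%, relative median 0.13). Against 2N 1 of 136 was called higher, RPS1B on XIII, beside 0.427% of all genes. The relative median there was -0.28, and -0.04 without A1 replicate 2. RPL3, a core large subunit protein, had 12.0 in both A1 libraries of exp5, against 11.3 to 11.9 in the others, and 7.28 and 7.07 in A1 against 7.42 and 7.43 in 2N, without a call.

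PRM5 was the only gene called lower both against 2N and in exp5. It encodes a cell surface protein induced by the cell wall integrity pathway, the MAP kinase pathway of Slt2 (chromosome IX, bases 140613 to 141569, minus strand). It was listed at 0 and had 0.66 in the A1 libraries of exp2, against 2.24 and 2.51 in 2N and 3.07 to 4.77 in the other 10. In exp5 it had 2.95 and 3.36 in A1, against a lowest of 3.51, a median of 6.40 and a highest of 7.70. In both experiments A1 was below every other library. The changes were -2.04 ± 0.39 against 2N (SE, limma adjusted p = 0.0404), -3.41 against the other 5 strains of exp2 (limma adjusted p = 0.000251) and -2.67 ± 0.23 in exp5 (limma adjusted p = 8.95e-08).

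The cell wall list, which holds PRM5, was low in A1 beside the aneuploid strains of exp2. Of 29 tested there, 8 were called lower than the other 5 strains, PRM5 included, and 1, GAS1 on XIII, higher, beside 2.01% and 1.08% of all genes, with a relative median of -0.70. Against 2N 2 were called higher (GAS1 and SED1) and 1 lower (PRM5), beside 0.427% and 0.0657% of all genes, with a relative median of -0.03. In exp5 18 of 31 were called lower and 3 higher (all genes 22.7% and 23%). A1 had the lowest strain mean for 5 of the 31 (SCW4, PRM5, CWP1, SRL3 and SRL1), against 3.11% of all genes tested. The level of the list in exp5 was -0.25 in A1, above A32 at -0.29 and A34 at -0.40. CWP1, a mannoprotein of the wall, had 3.78 and 3.49 in A1, 2.81 to 5.84 in the other strains of exp2 and 3.85 and 3.95 in 2N. The exp5 level was 6.59 and 6.73 in A1, against 6.98 to 9.42 (change -1.55 ± 0.16, limma adjusted p = 7.96e-07). SRL3 had 2.64 and 2.51 in A1, against 3.26 to 7.10 in the others. SED1, an abundant cell wall protein, lay between the groups of exp2, with 9.28 and 9.41 in A1, 9.51 to 10.72 in the other aneuploid strains and 8.57 and 8.64 in 2N.

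The other genes called in the same direction off XIII were YGP1, SSA1 and YDL124W. YGP1, a secreted glycoprotein made under starvation, had 4.24 and 4.30 in A1, against 1.92 and 2.53 in 2N (change 2.04 ± 0.22, limma adjusted p = 0.00312). In exp5 it had 7.58 and 7.49 in A1, against a lowest of 2.59, a median of 6.36 and a highest of 8.95 in the others, and A1 ranked 5 of 12. Against the other 5 strains of exp2 it was called lower, at -0.71 (limma adjusted p = 0.0495). SSA1, a cytosolic Hsp70 chaperone, had 5.65 and 5.66 in A1, against 4.48 and 4.84 in 2N (change 1.00 ± 0.19, limma adjusted p = 0.0404). The exp5 level was 8.55 and 8.51 in A1, inside the range of 7.53 to 8.98 in the others (change 0.25 ± 0.07, limma adjusted p = 0.00753). Against the other 5 strains of exp2 SSA1 differed by 0.15 (limma adjusted p = 0.632). YDL124W had 3.40 and 3.81 in A1, against 2.06 and 2.14 in 2N (change 1.51 ± 0.24, limma adjusted p = 0.0237). Its exp5 values of 7.32 and 7.34 were near the median of 7.27 in the others, at rank 6 of 12 (change 0.18, limma adjusted p = 0.0361). Compared with the other 5 strains of exp2, YDL124W differed by -0.34 (limma adjusted p = 0.378). Of the chaperone list, 3 of 25 were called higher against 2N, beside 0.427% of all genes. They were SSA1, HSP12 and HSC82, which lies on XIII. In exp5 17 of 35 were called higher and 8 lower, where 23% of all genes were called higher and 22.7% lower, so the share called lower was that of all genes. The remaining gene called lower against 2N, YBR089W, lies antisense to POL30. It was listed at 0 in both A1 libraries, against 2.58 and 3.12 in 2N, and it did not pass the filter in exp5.

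Cell type genes were checked because ploidy and mating type are not in the labels. In exp5 all 8 tested haploid-specific genes, 4 of 5 alpha cell genes and 3 of 5 a cell genes were called lower than the mean of the other strains, beside 22.7% of all genes. For MF(ALPHA)1, the alpha-factor pheromone gene, A1 had 2.71 and 2.18, against a lowest of 0, a median of 2.23 and a highest of 12.66 in the others. A1 was thus close to the median, and 3 strains, A26, A30 and A38, stood far above it. STE2, the receptor of a cells, had 2.57 and 2.34 in A1, with a median of 2.503 and a highest of 8.04 in the others (in A28). In exp2 MF(ALPHA)1 was listed at 0 and had 1.12 in A1, against 1.18 and 1.23 in 2N, and 0 of 5 alpha cell and 0 of 6 haploid-specific genes were called against 2N by limma, with 0 at an unadjusted p under 0.05. For a cell genes, 0 passed the filter in exp2. Among the other strains of exp2, A21 and A22 had 7.06 to 7.40 for MF(ALPHA)1. It passed the filter there only through these strains. With A1 and 2N both near 0 for it, the lack of a call is not informative. A23 had 5.45 and 5.65 for STE2, against 1.44 and 2.13 in A1. In neither experiment did MF(ALPHA)1 or STE2 in A1 reach the level of the strains that stood out.

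Iron genes, the targets of Aft1, were called lower for 15 of 26 and higher for 2 in exp5 (all genes 22.7% and 23%, relative median -0.37). The level of the list was -0.39 in A1, above A32 at -0.48 and A34 at -0.40, and 0 of 16 were called against 2N by limma (2 higher and 0 lower at an unadjusted p under 0.05). FIT3, a cell wall siderophore-retention protein, had 4.21 and 4.63 in A1, against 4.55 to 9.24 in the others, and 1.93 in both A1 libraries of exp2, against 2.06 to 4.52 in the other strains and 1.58 and 2.67 in 2N. Proteasome genes had 16 of 33 called lower and 3 higher in exp5 (all genes 22.7% and 23%, relative median -0.12) and 0 of 33 called against 2N by limma (3 higher and 1 lower at an unadjusted p under 0.05, relative median 0.16).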

How the data were processed

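Reads were aligned with STAR 2.5.3a and quantified with RSEM 1.3.0 on the sacCer3 build, per the submitters' processing notes. The deposited values are log2(TPM + 1) per gene and library on the log2 scale, by the authors, for 6692 genes and 176 libraries. No counts were used here, so read depth is unknown. Genes were placed by the sacCer3 annotation deposited with the series. The RefSeq R64 annotation gave gene names and centromeres, and 5981 of 5989 nuclear genes had the same coordinates in both sources. Groups came from the sample titles.

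Linear models (limma 3.58.1, R 4.3.3) gave the differences (a variance trend, Benjamini-Hochberg adjustment over all tested genes, threshold 0.05, genes with a mean of at least 2), with all 14 libraries of exp2 or all 24 of exp5 sharing the spread. Chromosome medians, exact permutation tests and counts were computed in Python 3.11.15 (scipy 1.17.1). The main fits, A1 minus 2N in exp2 and A1 minus the other strains in exp5, were checked on simulated data with 100 genes changed per size. Other differences between strains were left out of the simulated data. The remaining fits were not checked in this way. Named genes were called in both experiments, lay low on XIII in both, or were up to 4 members of a list with called members; others are said to be chosen after their values were seen. RPL6A, HMG1, ERG8, ERG3, TPS3 and the ribosome assembly genes were also chosen after their values were seen, as were ADE17, GCV2 and IDH2, ACO1, CIT1 and SRL3. The members, gene lists and tests were chosen with earlier results of these data known. Alternatives covered filters, scaling, pseudocount, left-out libraries and strains, and the strains compared with.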

Additional observations from a re-analysis of the deposited data

How the results depend on the processing

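The shift of XIII kept its direction in every setting run. In exp2 the mean of the A1 libraries was 0.48, and it was 0.61 with a filter at a mean of 4, 0.54 after rescaling to a fixed total and 0.49 to 0.52 without a 2N library. In exp5 it was 0.45, and 0.46 with a filter at 4 and 0.38 against the median of the other strain means. Calls in exp2 were few: 15 genes (5 on XIII) became 7 (1) with each library centred, 63 (41) with exp1 to exp3, 6 (1) with no filter, 7 (1) with no variance trend, 0 (0) with A1 and 2N only, 94 (13) against the other strains of exp2 and 1 to 6 (0 to 0) without 1 library. The XIII count was 9 with a filter at 4 and 2 after rescaling. In exp5 the 2457 calls (346 on XIII) became 0 (0) with strain means as the unit, and 1546 to 1562 without an A1 library. Departures from the chromosome, 4 in exp2, became 89 against the other strains, 7 after rescaling, and 0 at the least and 5 at the most without 1 library. In exp5 the 1839 (74 above and 89 below on XIII) became 0 (0 and 0) with strain means, 856 to 971 (31 to 32 and 39 to 49) without an A1 library, and on XIII 122 above and 45 below with a filter at 4. That filter left 39 followers, 2 non-followers and 16 mixed genes, among fewer tested genes. Same-direction calls, 8, became 4 after rescaling, 3 with centring and 2 with no filter, and opposite calls, 4, became 1 with centring and 1 with no filter.

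Set against the other strains of exp2 in place of 2N, 41 of the 88 named genes tested had the opposite sign, and 11 of these were called in at least 1 of the fits: YGP1 (-0.71), HSP12 (-0.11), TMA10 (-0.41), TSL1 (-0.54), HXK1 (-0.74), SAG1 (-1.85), TDH1 (-1.27), ENO1 (-0.72), YFR052C-A (-0.69), SED1 (-0.65) and YDL124W (-0.34). The alternative itself is a different comparison. The replicate numbers did not pair the samples: deviations of same-numbered libraries correlated at 0.10 in exp2 (2 pairs) and at -0.05 to 0.05 in exp5. With the replicate number as a block, exp2 gave 14 calls (4 on XIII), exp5 gave 2409 (346 on XIII), departures from the chromosome in exp2 were 2, and same-direction calls were 5. The settings against the other strains on the chromosome-centred scale, rescaling there, and strain means there were added after seeing the data. Low values limit exp2: a filter on log2(TPM + 1) left 257 of 513 XIII genes, and the scale understates changes of genes near 0.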

Other observations

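Ribosomal protein gene pairs showed a further pattern in exp5, chosen after the values were seen. RPL7B, RPS22B, RPS9A and RPL9B each had a low and a high level across the 12 strains, and A1 was at the high level for all 4. A30 for RPL7B (7.36 and 7.27) and A35 for RPS9A (7.6 in both libraries) lay in between. RPL7B had 9.62 and 9.76 in A1, against a lowest of 6.15, a median of 6.78 and a highest of 9.37 in the other 22 libraries, with A26, A32, A34 and A38 at the high level. RPS22B had 10.30 in both A1 libraries, against 6.70, 7.33 and 10.60 in the others. RPS9A had 8.38 in both A1 libraries, against 4.78, 6.06 and 8.46, and RPL9B had 9.74 and 9.73, against 7.68, 8.23 and 9.66. The strains at the high level were the same for RPL9B as for RPL7B. For RPS22B they were A24, A30, A33, A35 and A38, and for RPS9A A32, A34 and A36, with A35 below them.

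The partner genes varied less. RPL7A had 11.53 and 11.47 in A1, against 10.95 to 11.69 in the others. RPS22A had 11.85 in both A1 libraries, against 11.10 to 12.37, RPS9B had 12.16 and 12.13, against 11.63 to 12.28, and RPL9A had 11.58 and 11.57, against 11.18 to 11.97. In exp2 RPS9A had 3.05 and 3.59 in A1, 0 to 2.65 in the other 5 aneuploid strains and 3.56 and 3.84 in 2N. The other 3 genes did not set A1 apart there. RPL7B had 3.08 and 4.08 in A1, 0 to 4.03 in the other aneuploid strains and 2.52 and 3.14 in 2N. RPS22B had 4.17 and 3.73 in A1, 1.40 to 5.11 in the other aneuploid strains and 4.37 and 3.92 in 2N. RPL9B had 4.12 and 3.71 in A1, 3.10 to 4.66 in the other aneuploid strains and 3.98 and 4.47 in 2N. Each pair is nearly identical in coding sequence, and how the quantification split reads between partners was not tested.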
